A study of Mus musculus with 9 samples.

Results

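The report compares LSK cells of aged control mice with those of young control mice. LSK cells are bone marrow cells without mature lineage markers (Lin-) that carry Kit (cKit+) and Sca1 (Sca1+). The members are the 3 young control and the 3 aged control libraries of a series of 9 libraries. In these 6 libraries, 10613 of 21412 barcodes had 1000 to 40000 unique molecular identifiers (UMIs), at most 6000 genes and at most 10% of UMIs from mitochondrial transcripts, and 5581 of them were young and 5032 aged. The whole series holds 15975 such cells, and the libraries of aged mice that received the Cdc42 inhibitor CASIN were not part of this comparison. All mice were C57BL/6. Young mice were 10 to 12 weeks old and aged mice over 80 weeks. Both groups were given cyclodextrin, the vehicle of CASIN, by intraperitoneal injection every 24 h for 4 days, so neither group was untouched, and bone marrow was taken on day 5. Sorted cells were frozen alive and thawed before 10x Genomics 3' v3 sequencing. How many animals stood behind a library was not stated in the labels. Sequencing batch 1 held young 1, young 2 and aged 1, and batch 2 held young 3, aged 2 and aged 3.

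LSK cells hold the hematopoietic stem cells and the multipotent progenitors that they give rise to. Stem cells are rare among them, cycle slowly and carry Procr and Slamf1 on their surface, whereas multipotent progenitors divide more and take up Flt3 and Cd48 as they commit towards lymphoid and myeloid fates. With age, phenotypic stem cells become more frequent in mouse bone marrow, platelet genes such as Vwf and Selp become more abundant in them, and lymphoid output falls. In sums over all cells of a library, more cells of a type and more RNA per cell cannot be told apart.

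The kept cells of a library held 18026637 to 35128088 UMIs, with a median of 10338.5 to 14607.5 UMIs and 2919 to 3623 genes per cell. The batches differed before any filter. Between 11% and 21.8% of barcodes were over the mitochondrial limit in batch 1, and between 59.1% and 66.8% in batch 2, so that 74.5% to 86.5% of barcodes were kept in batch 1 and 31.8% to 38.8% in batch 2. The first principal component of the 6 libraries (75.8% of the variance) separated the batches, and the second (14.5%) set all young libraries (20.6 to 26.9) apart from the aged ones (-57.7, -10.3 and -4.22), with aged 1 the farthest. Transcripts of sex chromosomes differed in the same way: Xist, the RNA that silences one X chromosome in females, was at 0.03 to 0.17 CPM (UMI counts scaled to a common library total) in batch 1 and at 2246 to 2679 CPM in batch 2, while the Y-linked Ddx3y was at 43.9, 51.9 and 64.3 CPM in young 1, young 2 and aged 1 and had 0 UMIs in young 3. Sequencing batch and sex therefore cannot be told apart. Each batch holds both ages, and the test had the batch as a term. In kept cells, 46 pairs of batch 1 cells shared a barcode between libraries.

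Kit was found at 110 to 231 CPM and Ly6a, which encodes Sca1, at 89.1 to 163 CPM in all 6 libraries. Of the genes sorted against, Itgam lay between 3.69 and 10.3 CPM and Cd5 between 0.615 and 1.39 CPM, and Cd8a and Ly6g had too few UMIs to be tested. Transcripts of mature blood cells were present beside these. The summed level of 7 B cell markers was 307 to 9118 CPM in the young libraries, against 616 to 18369 CPM in the aged ones, most of it Igkc, the kappa light chain of antibodies, which reached at most 523 CPM in batch 1 but 6653, 7180 and 14688 CPM in young 3, aged 2 and aged 3. The summed level of 4 neutrophil markers was 4.59 to 84.0 CPM among young libraries and between 28.7 and 383 CPM among aged ones, with aged 3 the highest. None of these B cell or neutrophil markers passed the test between ages, and their part in the results was not tested.

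Of 13235 genes tested in UMIs summed per library, 89 (0.672%) differed between aged and young LSK cells at an adjusted p below 0.05 (edgeR's quasi-likelihood test, Benjamini-Hochberg adjustment). They were mostly genes that gained with age: 81 (0.612%) were higher and 8 (0.0604%) lower in aged cells. The higher genes had a median log2 fold change of 2.28 (range 0.63 to 8.81), and 44 of them differed by more than 4-fold. The largest value is that of Kcnb2, which had 0 UMIs in the young libraries, so its size depends on how a count of 0 is treated. Some of the 44, Kcnb2, Osmr and Hoxb8 among them, passed the filter on low counts only through the aged libraries. Their fold changes are not independent evidence. All 89 had the same direction in both batches, and for 52 of the 81 higher and 6 of the 8 lower genes no aged library reached into the young range, against 5.70% (aged above) and 3.74% (aged below) of all genes tested. The 89 genes were picked by a test on these same libraries that favours both traits, so these counts are not independent evidence. With DESeq2 in place of edgeR, 679 genes (5.13%) passed, the 89 among them. Of all genes, 2336 (17.7%) had an unadjusted p below 0.05 by edgeR, 11.5% higher and 6.17% lower, and the median log2 fold change was 0.01. The counts given below for gene lists are to be read beside these shares. Each fit with a library left out had fewer residual degrees of freedom than the main fit, and why its count differed was not tested. The number of genes called varied with the library left out. It was 3 (0.0222%) without young 1, 2 (0.0148%) without young 2, 2 (0.0148%) without aged 2 and 13 (0.0963%) without aged 3. Without young 3, when the contrast is aged 1 against young 1 and 2, it was 1670 (12.3%), and without aged 1, when the contrast is aged 2 and 3 against young 3, it was 44 (0.326%), of which 15 were among the 89.

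**Figure D1:**
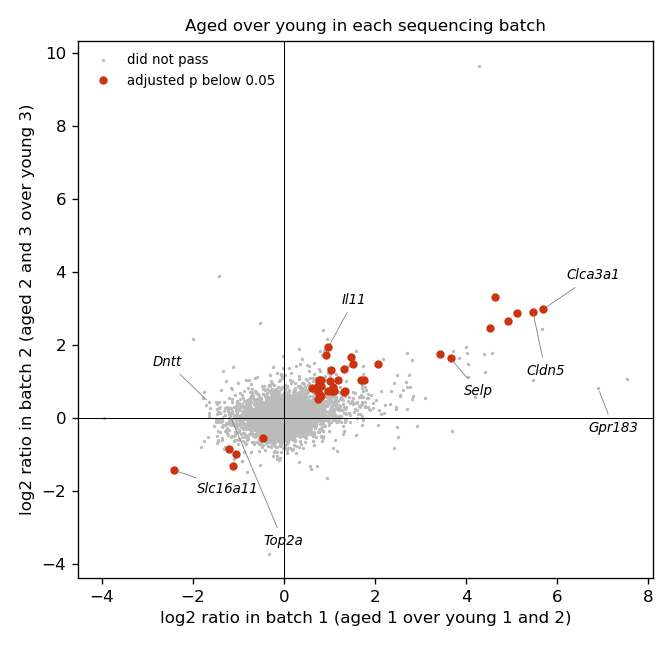
Each point is 1 of 7901 genes with a mean of at least 10 CPM, with the log2 ratio of aged over young in batch 1 on the horizontal axis and in batch 2 on the vertical axis; red points passed the test over both batches. The ratios of the batches correlated with r = 0.344, the batch 1 ratios spread wider (SD 0.51 against 0.344), and the red points lie in the quadrants where both batches have the same sign.

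The ratios of the 2 batches come from different libraries, 1 aged and 2 young in batch 1 and 2 aged and 1 young in batch 2. Across the 7901 genes with a mean of at least 10 CPM, 55.4% had the same sign in both. The points are genes and not independent replicates.

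Selp, which encodes the adhesion molecule P-selectin of platelets and endothelium (chromosome 1, 164115264 to 164150026 of GRCm38, plus strand), stood at 7.25, 6.72 and 22 CPM in young 1, 2 and 3 and at 88.3, 67.5 and 68.4 CPM in aged 1, 2 and 3. Every aged library lay above every young one, although young 3 was higher than the other young libraries. The log2 fold change was 2.64 ± 0.40 (SE; adjusted p = 0.0498), with a ratio of 3.66 in batch 1 and 1.63 in batch 2 on the log2 scale. Aldh1a1, which makes retinoic acid from retinaldehyde (chromosome 19, 20492715 to 20643465, plus strand), rose from 5.65, 4.92 and 9.54 CPM to 56.8, 34.9 and 29.2 CPM, a log2 fold change of 2.62 ± 0.34 (adjusted p = 0.042). Procr, which encodes the endothelial protein C receptor EPCR and marks stem cells (chromosome 2, 155751117 to 155755471, plus strand), rose from 43.9, 39.6 and 74.8 CPM to 105, 123 and 122 CPM, a log2 fold change of 1.02 ± 0.14 (adjusted p = 0.0472). For neither gene did the groups overlap.

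**Figure D2:**
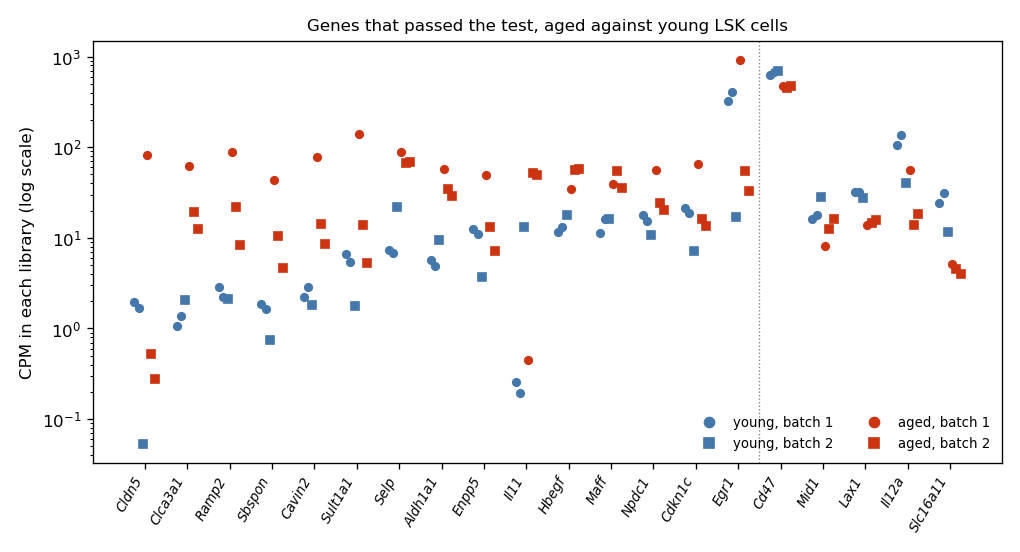
CPM on a log scale for the 15 higher (left of the dotted line) and the 5 lower genes with a mean of at least 10 CPM, 1 point per library, circles for batch 1 and squares for batch 2, blue for young and red for aged. Cldn5 in aged 1 (81.3 CPM) stands far above the other libraries, and Egr1 and Il11 are split more widely by batch than by age.

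Clca3a1, a member of the chloride channel accessory family (chromosome 3, 144729677 to 144760977, minus strand), was at 1.06, 1.37 and 2.04 CPM in young and at 62.8, 19.4 and 12.5 CPM in aged libraries. It had the second highest log2 fold change among the genes with a mean of at least 10 CPM, 4.62 ± 0.56 (SE; adjusted p = 0.0367). Ramp2, a partner of the adrenomedullin receptor, rose from 2.09 to 2.87 CPM in young to 88.8, 22 and 8.42 CPM in aged libraries (log2 fold change 4.30). Cavin2, a coat protein of caveolae, rose from 1.82 to 2.90 CPM to 77.4, 14.2 and 8.65 CPM (4.13), and Sbspon rose from 0.75 to 1.86 CPM to 43.2, 10.4 and 4.6 CPM (4.25). Aged 1 was the highest of the aged libraries for each of these genes, and none of the 4 overlapped between ages.

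In other called genes the groups overlapped across the batches. Cldn5, which encodes a tight junction protein of endothelium (chromosome 16, 18776847 to 18778262, plus strand), was at 81.3 CPM in aged 1 and at 1.98 and 1.70 CPM in young 1 and 2, but at 0.529 and 0.276 CPM in aged 2 and 3 and at 0.0536 CPM (1 UMI) in young 3. Its log2 fold change was 5.4 ± 0.27 (adjusted p = 0.00267), and the groups overlapped because both aged libraries of batch 2 were below the young ones of batch 1. Of 5 endothelial markers, Cldn5 was the only one that passed; their summed level was 45.8 to 61.4 CPM in young and 128, 37.4 and 39.3 CPM in aged libraries. Sult1a1, a sulfotransferase, was at 139 CPM in aged 1 against 5.41 to 6.56 CPM in its batch and at 14 and 5.29 CPM in aged 2 and 3 against 1.77 CPM (log2 fold change 3.89). Enpp5 had the same form (49.4 CPM in aged 1; log2 fold change 1.82). Il11, a cytokine of the interleukin 6 family, was below 0.5 CPM in batch 1 and rose from 13.1 CPM in young 3 to 51.5 and 49.0 CPM in aged 2 and 3 (log2 fold change 1.79).

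Hbegf, a ligand of the epidermal growth factor receptor, was at 11.5, 13 and 18 CPM in young and 34.3, 56.7 and 57.9 CPM in aged libraries. Its log2 fold change was 1.58 ± 0.11 (adjusted p = 0.00698), and its ratios in the batches were close (1.49 and 1.67). Maff, a small Maf transcription factor, rose from 11.3 to 16.3 CPM in young to 39.4, 55.2 and 35.2 CPM in aged libraries (1.5), and Npdc1 from 10.8 to 18.1 CPM to 56.6, 24.1 and 20.5 CPM (1.43). Cdkn1c, which encodes the cell cycle inhibitor p57 and is expressed from the maternal allele, was at 21.5, 18.9 and 7.24 CPM in young and 65.1, 16.2 and 13.5 CPM in aged libraries (log2 fold change 1.40 ± 0.17, adjusted p = 0.0367). Within each batch every aged library lay above the young ones, while across batches the groups overlapped.

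Among the rarer genes, several were close to absent in young cells. The following were chosen after their values were seen. Of these, Kcnb2, Osmr and Hoxb8 passed the filter on low counts only through the aged libraries, where they were high. Their near-absence in young cells is therefore not independent evidence. Bmpr1a, a receptor of bone morphogenetic proteins, had 0.602, 0.522 and 1.5 CPM in young and 8.45, 14.4 and 17.9 CPM in aged libraries. Its log2 fold change of 3.66 ± 0.21 (adjusted p = 0.00404) was much the same in batch 1 (3.91) and batch 2 (3.43), and no library overlapped. Osmr, the oncostatin M receptor, had 1, 1 and 3 UMIs in the young libraries and 80, 44 and 30 UMIs in the aged ones. Kcnb2, a potassium channel subunit, had 0 UMIs in the 3 young libraries together and 83 UMIs in the aged ones, which makes it at least 37.6-fold higher when 3 UMIs over the group are taken as the limit of a count of 0. Hoxb8, a homeobox transcription factor, rose from 0.0978 to 0.258 CPM to 14.7, 1.23 and 0.874 CPM, and Sfrp1, a secreted inhibitor of Wnt signalling, from 1.08 to 1.55 CPM to 12, 7.41 and 6.25 CPM.

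The 8 lower genes had the same sign in both batches. Slc16a11, a member of the monocarboxylate transporter family (chromosome 11, 70212752 to 70216417, plus strand), fell from 24.5, 30.8 and 11.5 CPM in young to 5.20, 4.54 and 3.96 CPM in aged libraries, a log2 fold change of -1.92 ± 0.25 (SE; adjusted p = 0.042). Itgb5, an integrin subunit, fell from 12.9, 14.8 and 6.91 CPM to 3.36, 1.94 and 2.67 CPM (-1.81). Lax1, an adaptor that dampens antigen receptor signalling in lymphocytes, fell from 32.4, 32.1 and 27.7 CPM to 13.9, 14.6 and 15.8 CPM (-1.04). In all 3 genes the aged libraries lay below the young ones.

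Cd47, whose product on the cell surface restrains uptake by macrophages (chromosome 16, 49800533 to 49915010, plus strand), was by far the most abundant of the lower genes. It was at 632, 676 and 687 CPM in young and at 476, 455 and 473 CPM in aged libraries. The gap between the groups was wider than the spread within either, and the log2 fold change was -0.51 ± 0.08 (adjusted p = 0.0496). Il12a, a subunit of interleukins 12 and 35, fell from 107, 135 and 40.1 CPM to 55.7, 13.8 and 18.2 CPM (-1.22), with overlap across batches but not within them. Mid1, a ubiquitin ligase of microtubules whose gene lies on the X chromosome, was at 16, 17.9 and 28.4 CPM in young and 8.17, 12.4 and 16.3 CPM in aged libraries (-1.01); batch 2 was higher at both ages. Slc35d3 fell as well (-1.61). Ibsp, which encodes bone sialoprotein, a matrix protein of bone, had 156 UMIs in young and 1 UMI in aged libraries, a ratio of 115 (exact 95% interval of counting error only, 20.3 to 4564). It passed the filter on low counts only through the young libraries, so its near-absence in aged cells is not independent evidence.

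Of 26 tested genes known for higher levels in aged stem cells, 8 passed the test and rose, beside 0.612% of all genes. All 26 had a log2 fold change above 0 (25 in both batches, beside 30.2% of all genes). Their median was 2.82 beside 0.01 over all genes tested. In 20 of them every aged library lay above every young one, beside 5.70% of all genes. The 8 that passed were Selp, Aldh1a1, Clca3a1, Sbspon, Cavin2, Sult1a1, Enpp5 and Osmr. The list was drawn up from general knowledge of stem cell ageing with earlier results of these data known, so its direction is not independent evidence. Within batches the median was 4.28 in batch 1 and 1.47 in batch 2, and without aged 1 it was 1.45, with 5 genes past the test. With young 1, young 2 or aged 2 left out 0 passed, without aged 3 3 passed, and without young 3 26 passed.

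Members of this list that did not pass include its best known names. Vwf, which encodes von Willebrand factor, a clotting protein of platelets and endothelium, was at 1.72, 2.38 and 5.41 CPM in young and 48.9, 25.7 and 11.4 CPM in aged libraries (log2 fold change 3.25 ± 0.63, adjusted p = 0.0759). Slamf1, which encodes CD150, was at 4.01, 3.33 and 1.34 CPM in young and 29.5, 4.89 and 2.21 CPM in aged libraries (2.44 ± 0.42, adjusted p = 0.0602). The groups did not overlap for Vwf but did for Slamf1, where aged 3 fell below young 1 and 2. Nupr1, a stress-induced chromatin protein, had 5.64 to 39.9 CPM in young and 292, 88.9 and 74.5 CPM in aged libraries (adjusted p = 0.156). The metallothioneins Mt1 and Mt2, which bind zinc and other metals, lay higher in every aged than in every young library, but young 3 was at 115 CPM of Mt1 beside 10.2 and 13 CPM in young 1 and 2, and neither passed (adjusted p = 0.185 and 0.201).

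Genes of stem cell identity and of platelets shifted less and unevenly. Of 20 stem cell identity genes, Procr alone passed, beside 0.612% of all genes that were higher. A log2 fold change above 0 was found for 18 (13 in both batches, beside 30.2% of all genes). The median was 0.84, made of 1.29 in batch 1 and 0.19 in batch 2. Gata2, a zinc finger transcription factor of stem cells, was at 35.8, 35.8 and 57.1 CPM in young and 103, 99.0 and 66.0 CPM in aged libraries without overlap (log2 fold change 1.03, adjusted p = 0.105). Hlf, a transcription factor of stem cells, had log2 ratios of 0.27 in batch 1 and -0.97 in batch 2. Of 23 platelet and megakaryocyte genes, Selp and Cavin2 passed, beside 0.612% of all genes that were higher. The median was 0.85 and its values in the batches were 1.26 and 0.06. Pf4 (platelet factor 4) was at 28.3 to 44.2 CPM in young and 58.0, 43.1 and 26.2 CPM in aged libraries.

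**Figure D3:**
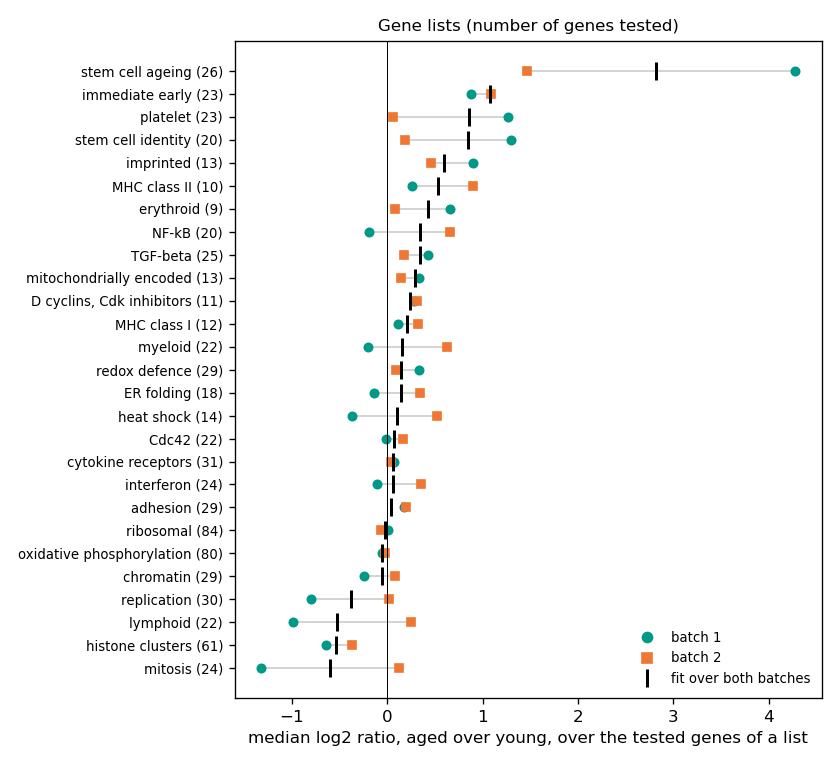
For each of 27 gene lists, the median log2 ratio of aged over young among its tested genes (number in brackets) in batch 1 (green circles), in batch 2 (orange squares) and in the fit over both batches (black bars). The stem cell ageing list lies highest in both batches (4.28 and 1.47), the immediate early list is alike in both (0.88 and 1.09), and the mitosis and lymphoid lists lie below 0 in batch 1 and above 0 in batch 2.

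Immediate early genes are transcribed within minutes of a stimulus and also respond to the handling of tissue. Of 23 tested, 2 passed the test and rose (Egr1 and Jund), beside 0.612% of all genes. A log2 fold change above 0 was found for 22 (20 in both batches, beside 30.2% of all genes). The median was 1.08 (0.88 in batch 1 and 1.09 in batch 2). Jund, a subunit of the AP-1 transcription factor (chromosome 8, 70698949 to 70700616, plus strand), rose from 836, 871 and 607 CPM in young to 1712, 1208 and 1227 CPM in aged libraries, a log2 fold change of 1.00 ± 0.07 (SE; adjusted p = 0.00698), with ratios of 1.00 and 1.01 in the batches and no overlap.

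Egr1, a zinc finger transcription factor, was at 324, 401 and 17.2 CPM in young and 908, 54.6 and 32.7 CPM in aged libraries. Its level depended far more on the batch than on age, and the log2 fold change of 1.33 ± 0.20 (adjusted p = 0.0494) was much the same within both. Fos, the partner of Jun proteins in AP-1, had the widest gap between batches, with 1305, 1400 and 2458 CPM in batch 1 and 16.9, 136 and 43.4 CPM in batch 2 (log2 fold change 1.59, adjusted p = 0.193). Nr4a1 and Nr4a2, nuclear receptors without a bound hormone, did not overlap between ages, and their log2 fold changes of 1.71 and 2.24 had adjusted p of 0.0722 and 0.0531. Without aged 1, 4 genes of the list passed, all higher, and without young 3, 9 passed higher and 2 lower. With young 1, young 2 or aged 2 left out 0 passed, and without aged 3 3 passed, all higher. The list median was 0.52 without the batch term and 0.50 with a replicate block in its place. Freezing, thawing and the time to sort were not recorded by library, and their part was not tested.

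The CArG box is the site of serum response factor, a known activator of immediate early genes. The promoter window of 250 bases before to 50 bases after the start (RefSeq, GRCm38.p6) was available for 20 of the 23 genes, and CArG letters stood in 1 of them on either strand, Zfp36, beside 1.57% of all 27025 windows. Zfp36 encodes an RNA-binding protein that speeds decay of cytokine mRNA and did not pass the test (log2 fold change 0.83, adjusted p = 0.195). The match is shown with 10 bases on each side and the box in capitals, from chr7:28379267-28379296 on the minus strand. It is the only one among the 20 windows.
Zfp36: ccaggccgccCCATAAAAGGagaaagctcc
The window of Jund (chromosome 8, 70697489 to 70697788) had no match. It ends before the gene start of 70698949 given above, so the bases around that start were not searched. Sites outside the windows were not searched for any gene. For Egr1, the other gene of the list that passed, no window was available, so it was not searched.

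Of 10 genes of antigen presentation on MHC class II, 1 rose in aged cells, beside 0.612% of all genes. A log2 fold change above 0 was found for 6 (6 in both batches, beside 30.2% of all genes). H2-Aa, the alpha chain of I-A, was at 36.2, 28.9 and 38.7 CPM in young and 61.9, 133 and 120 CPM in aged libraries without overlap (log2 fold change 1.32 ± 0.20, adjusted p = 0.0478). It was the 1 gene of 10 in the list that passed. H2-Eb1 (1.41, adjusted p = 0.0602) and Cd74, the invariant chain (1.06, adjusted p = 0.0623), lay near it, and H2-Ob, which restrains peptide loading, had a log2 fold change of -0.88 (adjusted p = 0.153). The list median was 0.53 (0.26 in batch 1 and 0.90 in batch 2). Without aged 1, 3 members passed, and without young 3, 3 passed higher and 1 lower. With any other library left out 0 passed. The count was also 0 with other size factors, a mitochondrial limit of 5% or likely doublets left out. B cells carry these genes too. The summed level of 7 B cell markers was 307, 401 and 9118 CPM in young and 616, 9053 and 18369 CPM in aged libraries. Their log2 fold changes ran from -0.84 to 1.12. Of them, Cd79a was at 2.87 to 12.7 CPM in young and 3.84 to 12.8 CPM in aged libraries. The part of B cells in the class II levels was not tested.

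Genes of mitosis, DNA replication and lymphoid priming had median log2 ratios below 0 in batch 1 and above 0 in batch 2. Of 24 mitosis genes none passed the test (5 at an unadjusted p below 0.05 by edgeR, 2 adjusted calls by DESeq2). All 24 were lower in aged 1 than in young 1 and 2, with a median log2 ratio of -1.32, whereas in batch 2 the median was 0.12. Top2a, a topoisomerase of dividing cells, was at 189, 181 and 175 CPM in young and 81.2, 200 and 170 CPM in aged libraries, so that aged 1 alone stood apart. In a test of the difference between the batches, 13 of the 24 genes passed, beside 2.36% of all genes. Cdk1, the kinase of mitotic entry, lay below the young range in all aged libraries (78.3, 72.4 and 88.4 CPM against 37.8, 62.9 and 52.0 CPM; adjusted p = 0.057). Of 30 DNA replication genes none passed (4 lower at an unadjusted p below 0.05, 1 adjusted call by DESeq2), with medians of -0.79 in batch 1 and 0.02 in batch 2. In the test of the difference between the batches, 0 of the 30 passed.

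Replication-dependent histone genes had the more even pattern. None of 61 passed (32 lower and none higher at an unadjusted p below 0.05; DESeq2 called 14 lower), but 47 were lower in both batches, against 25.8% of all genes, with a median log2 fold change of -0.54 (-0.64 in batch 1 and -0.37 in batch 2). Hist1h1b, a linker histone, was at 229, 226 and 59.1 CPM in young and 88.5, 35.6 and 41.8 CPM in aged libraries (log2 fold change -0.99, adjusted p = 0.0636). These mRNAs mostly lack a poly(A) tail and their sequences are close to each other, so their counts in a poly(A) library are uncertain.

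Of 22 lymphoid priming genes none passed (2 higher and 5 lower at an unadjusted p below 0.05; DESeq2 called 1 higher and 4 lower). The median log2 ratio was -0.98 in batch 1 and 0.25 in batch 2. Dntt, the polymerase that adds bases at antigen receptor joints, was at 347, 454 and 104 CPM in young and 128, 175 and 104 CPM in aged libraries. Flt3, the receptor of lymphoid-primed progenitors, was at 127, 147 and 66.2 CPM in young and 51.3, 90.4 and 68.6 CPM in aged libraries. In both genes young 3 was as low as the aged libraries, and the difference between the batches passed its own test (adjusted p = 0.0458 for Dntt and 0.0268 for Flt3, edgeR). Of the list, 7 genes were below 0 in both batches, Vpreb1 of the surrogate light chain (log2 fold change -1.53, adjusted p = 0.111) and the B cell factor Ebf1 (-1.40, adjusted p = 0.195) among them. Ikzf1, a transcription factor of lymphoid commitment, was at 73.5, 76.1 and 97.8 CPM in young and 51.8, 74.5 and 69.4 CPM in aged libraries (-0.49, adjusted p = 0.0632).

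In the myeloid list none of 22 genes passed (6 higher and 3 lower at an unadjusted p below 0.05; DESeq2 called 2 higher and 2 lower). Elane, the neutrophil elastase of granulocyte progenitors, had 5.88, 28.4 and 46.3 CPM in young and 57.4, 134 and 114 CPM in aged libraries without overlap (adjusted p = 0.181), while Cebpa, a driver of myeloid fate, had 28.3, 30.7 and 26 CPM in young and 11.5, 13.2 and 21.9 CPM in aged libraries (log2 fold change -0.95, adjusted p = 0.14). None of 9 erythroid genes passed (4 higher at an unadjusted p below 0.05; DESeq2 called 2).

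Several lists held a single called gene or none, beside 0.612% of all genes called higher and 0.0604% called lower. Of 25 TGF-beta and BMP genes, Bmpr1a rose; Id1, a target of BMP signals, had log2 ratios of 1.40 and 1.42 in the batches (adjusted p = 0.0722). Of 31 cytokine receptors, Osmr rose. Csf2rb, the shared chain of the interleukin 3 and GM-CSF receptors, had log2 ratios of -0.92 and -1.17 (adjusted p = 0.0824). Of 29 adhesion genes, Selp and Cldn5 rose and Itgb5 fell. Cd34, low on long-term stem cells, was at 350 to 371 CPM in young and 158, 335 and 294 CPM in aged libraries (adjusted p = 0.199). Cxcr4, the receptor that holds stem cells in marrow, was at 11.3 to 12.5 CPM in young 1 and 2 and 412 CPM in young 3, against 5.59, 126 and 249 CPM in aged libraries, with log2 ratios of -1.09 and -1.14 (adjusted p = 0.103).

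Of 13 imprinted genes, Cdkn1c rose, beside 0.612% of all genes. A log2 fold change above 0 was found for 12 (9 in both batches, beside 30.2% of all genes), with a median of 0.59. Ndn (adjusted p = 0.0599) and Meg3 (adjusted p = 0.137, both by edgeR) had log2 fold changes of 1.78 and 1.66. Cdkn1c was also the 1 called gene of 11 D cyclins, their kinases and Cdk inhibitors. Ccnd1, the D cyclin with the highest log2 fold change, was at 33.5, 31.1 and 14 CPM in young and 50.6, 29.7 and 26.4 CPM in aged libraries (adjusted p = 0.0514). No gene passed among 24 interferon response, 20 NF-kB, 14 heat shock, 18 endoplasmic reticulum folding, 12 MHC class I, 29 redox and 29 chromatin genes by edgeR. In that order, 3, 8, 2, 2, 7, 11 and 7 had an unadjusted p below 0.05 by edgeR, beside 17.7% of all genes. DESeq2 called 1, 4, 1, 0, 2, 5 and 1, beside 5.13% of all genes. The NF-kB inhibitor Nfkbia had log2 ratios of -0.30 in batch 1 and 1.18 in batch 2, the chaperone Hspa8 -0.71 and 0.59, and the folding factor Calr -0.23 and 0.72.

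For abundant members of the lists without a call, the differences over both batches did not pass the test. The interferon-induced membrane proteins Ifitm3 and Ifitm1 had log2 fold changes of 0.56 and 0.25 (adjusted p = 0.0824 and 0.242), and the class I genes H2-K1 and B2m 0.33 and 0.19 (adjusted p = 0.147 and 0.26). The erythroid genes Blvrb and Car2 had 0.43 and 0.13, and the granule proteoglycan Srgn of myeloid cells 0.13. In the chromatin list Kmt2a had -0.06 and Idh2 -0.20, in the redox list Txn1 had -0.07 and Gpx1 -0.11, and the lymphoid factor Mef2c had -0.02. For the genes that follow, the log2 ratios of the 2 batches lay apart. None of them passed the test of the difference between the batches. Plac8 had log2 ratios of -1.38 in batch 1 and -0.06 in batch 2. The replication helicase subunit Mcm6 had -0.79 and 0.06, the clamp loader subunit Rfc2 -0.69 and 0.19, and Idh2 -0.61 and 0.21. The chaperone Hspa5 went from -0.29 to 0.92, and Hsp90ab1 from -0.27 to 0.02. Cenpa, the centromere histone, had -1 and -0.39, and the chemokine Ccl4 -0.73 and -0.18.

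The genes of basal machinery hardly differed. Among 84 ribosomal protein genes and 80 nuclear genes of oxidative phosphorylation none passed (1 and 2 at an unadjusted p below 0.05; DESeq2 called 0 and 1), and the medians were -0.02 and -0.05. Rpl13 and Rps24 had log2 fold changes of 0.02 and -0.06 (that of Rpl13 had the other sign in some alternatives), and Cox8a and Atp5g2 -0.06 and -0.17. Of 13 mitochondrially encoded genes none passed (6 higher at an unadjusted p below 0.05; DESeq2 called 2), with a median of 0.29 beside the higher mitochondrial share of the aged cells that were kept, 3.43%, 6.97% and 5.89% against 2.87%, 2.65% and 5.01% at the median cell. Cdc42, the small GTPase that the study's inhibitor targets, was at 379, 371 and 353 CPM in young and 387, 387 and 384 CPM in aged libraries (log2 fold change 0.09 ± 0.08, adjusted p = 0.591). None of 22 genes of Cdc42, its regulators and effectors passed (6 at an unadjusted p below 0.05; DESeq2 called 2).

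The share of cells with a UMI shows how far these levels were spread over the pool. Cells were thinned to 4000 UMIs each, so that libraries of different depth can be compared, and 25 to 72 shallower cells per library were left out. The exact permutation tests of these shares had no batch term. Procr was found in 18.4%, 16.3% and 23.8% of young cells and in 33.2%, 32.9% and 33.8% of aged cells, a mean of 19.5% ± 3.87 against 33.3% ± 0.437 (SD, n = 3; two-sided exact permutation p = 0.1, the smallest that 3 against 3 allows). In cells with both a Flt3 and a Dntt UMI, Procr should be low. Pooled over libraries, the share there was 5.21% of 826 young and 12.3% of 333 aged cells, all at 4000 UMIs. By library it was 5.79%, 3.75% and 4.29% in young 1, young 2 and aged 1 of batch 1. In batch 2 it was 11.3%, 13.6% and 15.5% in young 3, aged 2 and aged 3. The pooled values therefore mix batch with age. Without thinning, the mean share of all cells with Procr was 40.1% in young and 54.3% in aged libraries. In cells with both a Flt3 and a Dntt UMI it was then 23.2% of 1957 young and 33.5% of 865 aged cells, pooled over libraries.

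Vwf was found in 0.895%, 1.15% and 2.11% of young cells and in 17.2%, 9.94% and 4.47% of aged cells (exact permutation p = 0.1, n = 3), against 0.121% and 0.901% of the Flt3 and Dntt cells of the young and aged libraries; without thinning the means were 2.86% and 19.2%. Slamf1 was found in 1.70%, 0.781% and 0.590% of young and 12.2%, 2.55% and 0.882% of aged cells (exact permutation p = 0.2, n = 3), against 0.121% and 0.300%; without thinning the means were 3.09% and 10.7%. In the Flt3 and Dntt cells without thinning, Vwf was in 0.613% of young and 3.12% of aged cells, and Slamf1 in 1.99% and 1.04%. After thinning, the groups did not overlap for Procr and Vwf and did for Slamf1, where aged 1 carried the difference.

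**Figure D4:**
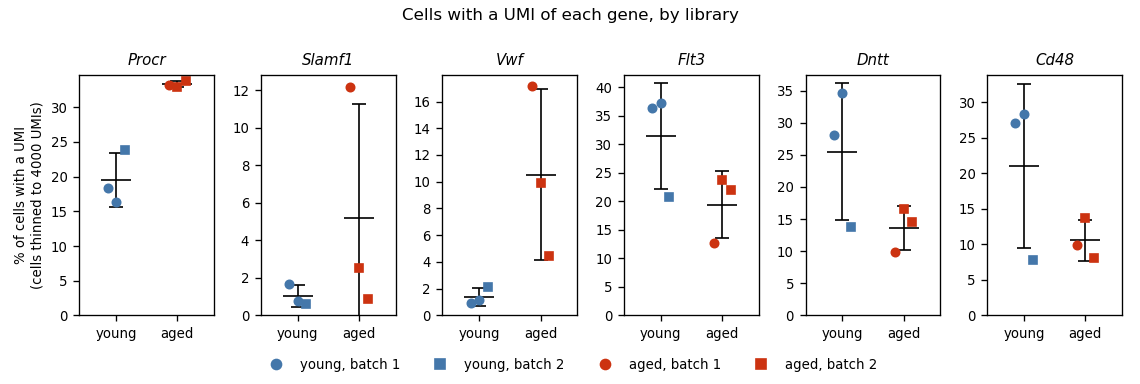
Share of cells (%) with at least 1 UMI of each gene after thinning to 4000 UMIs, 1 point per library, circles for batch 1 and squares for batch 2, with the mean and SD of 3 libraries in black. The 3 aged libraries of Procr lie between 32.9% and 33.8%, above all young libraries, while for Flt3, Dntt and Cd48 the young library of batch 2 lies with the aged ones.

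After thinning, cells with a UMI of the progenitor genes were fewer in aged than in young libraries in batch 1, while the batch 2 differences were above 0, and aged 1 had the lowest share of the 6 libraries for Flt3 and Dntt. Flt3 was found in 36.4%, 37.3% and 20.7% of young and 12.7%, 23.7% and 21.9% of aged cells, a difference of -24.2 percentage points in batch 1 and 2.09 in batch 2 (exact permutation p = 0.3 over all libraries, n = 3). Dntt followed with 28.0%, 34.7% and 13.8% against 9.89%, 16.6% and 14.5% (-21.5 and 1.75 points; exact permutation p = 0.3, n = 3), and Cd48, a marker of multipotent progenitors, with 27.1%, 28.3% and 7.75% against 9.89%, 13.8% and 8.12% (-17.8 and 3.19 points; exact permutation p = 0.4, n = 3). In thinned cells with both a Procr and a Slamf1 UMI, 0 of 13 young and 0 of 102 aged cells had Dntt or Cd48, and Flt3 was in 15.4% and 3.92%. Without thinning, 93 young and 373 aged cells had both UMIs. Of these, 16.1% and 5.36% had Dntt, 24.7% and 3.49% had Cd48, and 30.1% and 6.43% had Flt3. Among all cells without thinning, the means were 60.5% and 36.5% for Flt3, 37.4% and 21.1% for Dntt and 43.1% and 23% for Cd48. The difference in Flt3 was then -2.63 points in batch 2, with no overlap between the ages (exact permutation p = 0.1, n = 3). The difference in Procr was 15.8 points in batch 1 and 9.5 in batch 2.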

How the data were processed

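The authors mapped the reads to GRCm38 (mm10) with the Ensembl 93 annotation and counted UMIs per gene and barcode with Cell Ranger 3.1.0, and the deposited counts are raw UMI counts of barcodes called as cells, without normalization. From these counts, barcodes were filtered as stated, with limits from the study's methods, and UMIs were summed over the kept cells of each library. The labels do not say whether libraries of a group came from separate animals, so p-values measure the spread between these libraries. Sums were compared with edgeR 4.0.16 (filterByExpr, TMM normalization, quasi-likelihood test, batch as a term, 6 libraries, 3 residual degrees of freedom) in R 4.3.3, with Benjamini-Hochberg adjustment over 13235 genes and a threshold of 0.05. CPM are TMM-normalised, and log2 ratios within a batch are ratios of mean CPM. The SE of a log2 fold change is its absolute value divided by the square root of the F statistic of the test. Difference between batches used the interaction term (2 residual degrees of freedom). DESeq2 1.42.0 was an alternative. On simulated data with 13235 genes, the aged and young test recovered 60% of genes changed by a log2 of 1 and 92% of those changed by 2, and 7.32% of its calls were false.

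Genes named are the 15 highest and 15 lowest by log2 fold change among those that passed with a mean of at least 10 CPM and one direction in both batches (5 were lower), up to 4 called genes per list or else the 2 most abundant, and the sort, stem cell and Cdc42 genes; others were named after their values were seen. Members, lists and tests were chosen with earlier results of these data known. The 27 lists are described by counts and medians only. Sex-linked genes served as a check of the libraries. Doublets stayed in; Scrublet (scanpy 1.11.5) called 0.473% to 0.765% of cells per library, and the top 5% by its score were left out in an alternative. Coordinates are of GENCODE M21 (GRCm38), in which all 89 called genes were found. Intervals cover counting error only. Thinning and exact permutation tests (two-sided) were run in Python 3.11.15. The permutation tests exchanged libraries across batches, so their p-values do not take the batch into account. Alternatives were other size factors, all genes without a minimum count, a fit without the batch, a replicate block, all 9 libraries, mitochondrial limits of 5% and 20%, the study's residual filter of 0.4, thinned cells and each library left out, and, added after seeing the data, shared barcodes left out and the interaction fit. Values of some list members are not reported here.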

Additional observations from a re-analysis of the deposited data

Results flagged for a closer look

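The difference between aged and young cells was itself different in the 2 batches for 313 genes of 13235 (2.36%; edgeR's interaction term, adjusted p below 0.05), and 2427 had an unadjusted p below 0.05. In 206 of the 313 the log2 ratio was more positive in batch 1. Of the 68 genes picked by the naming rule given with the processing, sex-linked checks aside, 9 were among them. Genes named after their values were seen were not part of this count. The log2 ratio in batch 2 minus that in batch 1 was -1.68 for Aldh1a1, -2.72 for Clca3a1 and -2.03 for Selp, which rose in both batches but more in batch 1. It was 2.07 for Dntt, 1.68 for Flt3, 1.30 for Hspa8, 1.48 for Nfkbia, 0.95 for Calr and 1.26 for Top2a, with ratios below 0 in batch 1 and above 0 in batch 2. By list, 13 of 26 stem cell ageing, 13 of 24 mitosis, 8 of 20 stem cell identity, 9 of 29 adhesion, 7 of 20 NF-kB and 4 of 14 heat shock genes passed this test. So did 3 of 9 erythroid, 3 of 13 imprinted, 4 of 22 lymphoid, 4 of 24 interferon and 5 of 31 cytokine receptor genes. Counts were lower for 3 of 23 platelet, 3 of 29 redox, 2 of 18 endoplasmic reticulum folding, 2 of 23 immediate early, 1 of 29 chromatin and 1 of 61 histone genes. No gene of the other lists passed, replication, TGF-beta and both MHC lists among them. Batch 1 has a single aged library and batch 2 a single young one, and batch, sex and these libraries cannot be told apart. Groups of 3 libraries are too small for a test of single outlying samples.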

How the results depend on the processing

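All 89 genes, where tested, kept their direction under every alternative but the replicate block, where 87 did. Passing the test was less stable. Of 18 alternatives, Egr1, Cd47 and Mid1 no longer passed in 11, Selp in 10, H2-Aa in 9 and Procr in 8. Jund no longer passed in 5, Cldn5 in 3 and Bmpr1a in 2. The count of genes called was 54 (50 higher, 4 lower) with RLE size factors, 517 (454, 63) with all 9 libraries, 5 (5, 0) with a mitochondrial limit of 5%, 183 (159, 24) with 20%, 176 (160, 16) in thinned cells, 62 (58, 4) without likely doublets and 679 (496, 183) with DESeq2, all of them having the batch as a term. Without the batch term it was 0 (0 higher, 0 lower; 591 at an unadjusted p below 0.05). Leaving out 1 library each gave 2 to 1670 calls (2 to 1128 higher, 0 to 542 lower); a batch is then left with a single library of an age, or with none, and the cause was not tested. The share of calls that were higher was 91.0%, against 73.1% with DESeq2, 67.5% without young 3 and 72.7% without aged 1.

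With a replicate block in place of the batch, 0 genes were called (0 higher, 0 lower; 944 at an unadjusted p below 0.05). Replicate numbers come from the labels only, and number 2 spans both batches, while numbers 1 and 3 each lie within a single batch. The deviations of same-numbered libraries correlated at 0.754, -0.639 and 0.773. With the batch removed they correlated at -0.680, 0.304 and -0.433, so the numbers were not taken to pair the libraries.

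Some genes that did not pass changed sign. Without the batch term and with the replicate block, Ifitm1 was at -0.17 and -0.27, Car2 at -0.048 and -0.069, Rpl13 at -0.12 and -0.12, Mef2c at 0.11 and 0.15 and Kmt2a at 0.089 and 0.074 on the log2 scale. Rpl13 was at -0.013 with all 9 libraries and -0.057 with a mitochondrial limit of 20%, Hspa8 at 0.045 with 5%, and Cd48 at 0.035 with all 9 libraries. With 1 library left out, log2 fold changes ran from -0.31 to 1.16 for Nfkbia, -0.29 to 0.91 for Hspa5, -0.11 to 0.61 for Kit, -0.23 to 0.70 for Calr, -0.044 to 0.059 for Rpl13, -0.24 to 0.17 for Mef2c, -0.15 to 0.0046 for Kmt2a, -0.72 to 0.57 for Hspa8, -0.34 to 0.10 for Gpx1, -0.27 to 0.0033 for Hsp90ab1, -1.13 to 0.77 for Cd48, -0.61 to 0.19 for Idh2, -0.69 to 0.17 for Rfc2, -0.80 to 0.036 for Mcm6, -1.19 to 0.057 for Top2a, -1.42 to 0.24 for Flt3 and -1.65 to 0.41 for Dntt. With 3 libraries per age and 2 batches, part of the smaller changes would be missed. Of simulated log2 changes of 1 that were equal in both batches, 60% were recovered. An exact test of 3 against 3 allows no p below 0.1.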
